A study of Mus musculus with 6 samples.

Results

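The nuclei described here are those that a set of marker genes of vascular and meningeal fibroblasts picked out of mouse pons and medulla, and they numbered 539 of 40139 kept nuclei (1.34%). A nucleus was kept if it held at least 500 genes and at most 5% of its unique molecular identifiers (UMIs, each standing for 1 captured RNA molecule) in mitochondrial genes. It was taken as a member if Slc6a13, Ranbp3l, Dcn, Col1a2, Cped1, Slc6a20a and Colec12 together had at least 3 UMIs from at least 2 of these genes. Members also had at most 1 UMI of Flt1, at most 1 of Mog and Mag together, fewer than 8 of Meg3, and no more UMIs of Pdgfra and Tnr than of the 7 marker genes. These genes mark endothelial cells, oligodendrocytes, neurons and oligodendrocyte precursors in that order. Pdgfra was not confined to precursors, and its level in members exceeded that in the other kept nuclei by a mean log2 ratio of 4.92. The members are called fibroblast-rule nuclei below.

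The libraries came from wild-type male C57BL6/J mice that were weaned at postnatal day 21. In the exposed group the mice spent 21 days, from postnatal day 22 to 43, in chronic intermittent hypoxia (CIH). Nitrogen ran for 60 seconds until inspired oxygen fell to 4.5 to 5%, air brought it back to 21% within up to 5 minutes, and the mice went through 80 such cycles in each 8-hour day. Control mice were kept in room air (normoxia) over the same days. Each group had 3 libraries, made from frozen tissue by sorting Hoechst-stained nuclei and capturing them with 10x Genomics 3′ chemistry. Whether a library holds 1 mouse or a pool is not stated, so p-values measure only the spread between these libraries.

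Fibroblasts of the brain lie in the meninges (the dura, arachnoid and pia) and in the perivascular space around larger vessels that enter the tissue. They lay down fibrillar collagen, laminin and proteoglycans, feed the basement membrane at the brain surface, and secrete retinoic acid and bone morphogenetic proteins. Arachnoid barrier cells, a related type joined by tight junctions, form the barrier between the dura and the cerebrospinal fluid and carry many transporters. Pericytes and smooth muscle cells, together called mural cells, wrap the vessel wall beside them and share several of their genes, such as Pdgfrb.

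The members numbered 64, 58 and 275 in the CIH libraries (CIH 1, CIH 2 and CIH 3) and 43, 31 and 68 in the normoxia libraries (normoxia 1, normoxia 2 and normoxia 3). Their median depth was 2279.5, 2215.5 and 1671 UMIs per nucleus in CIH and 1972, 1839 and 1421 in normoxia, against 2349 to 3638.5 over all kept nuclei of a library. Summed over members, the libraries held 167642, 151684 and 538816 UMIs in CIH and 104434, 82963 and 112869 in normoxia. CIH 3 thus supplied 275 of the 539 nuclei, and its members had a median mitochondrial share of 0.538%, against 0.105 to 0.315% in the other 5 libraries. CIH 1 and normoxia 2 shared 1163 kept barcodes, 26.7% of the kept nuclei of the former and 17.6% of the latter, while the other 14 pairs of libraries shared 2 to 31. A shared barcode held a median of 9858 UMIs in CIH 1 and 1232 in normoxia 2, and the ratio of the 2 counts lay between 7.22 and 8.76 from its 5th to its 95th percentile. Of the members, 3 nuclei of CIH 1 and 1 of normoxia 2 carry such a barcode, and 1 barcode is a member in both libraries. The share of members is given below with and without these barcodes, and leaving them out of both libraries left the count of genes called at 0.

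The marker genes themselves, which chose the nuclei and are given as a description, came from different functions. Dcn (decorin, a small proteoglycan that binds collagen fibrils) had 489, 494 and 343 CPM (UMIs of the gene per 1000000 UMIs of the members of a library) in the members of the 3 CIH libraries and 402, 470 and 390 in normoxia. Col1a2, a chain of type I collagen, had 418, 277 and 304 in CIH and 412, 374 and 381 in normoxia. Slc6a13, a transporter of GABA and betaine, had 352, 415 and 265 in CIH and 440, 229 and 186 in normoxia. The levels of these 3 genes overlapped between the groups. Slc6a20a, a transporter of proline and related amino acids, lay between 975 and 1121 CPM in all 6 libraries. Ranbp3l, a Ran-binding protein gene, lay between 753 and 1245, Colec12, a scavenger receptor gene, between 758 and 1266, and Cped1 between 868 and 1933. The lowest Cped1 level was that of normoxia 2, and the other 5 libraries had at least 1561.

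Most members carried more than the minimum. The median sum of the 7 genes was 14, 10 and 8 UMIs in the CIH libraries and 12, 8 and 7 in normoxia, and 64 to 79.1% of the members of a library had UMIs of at least 3 of the genes. Free RNA in the droplets gives a low level of such UMIs in any nucleus. In oligodendrocyte nuclei (at least 3 UMIs of Mog and Mag), which should lack these genes, 0 to 1.70% of nuclei had a UMI of any 1 of them. The share among members, 17.6 to 92.2%, is set by the rule and supports nothing. Oligodendrocyte nuclei had a median of 2308 to 3450 UMIs per library, more than the members in each of the 6 libraries. In the mm10 build (GENCODE M21), Dcn is on chromosome 10 from 97479609 to 97518143 (plus strand), Slc6a13 on chromosome 6 from 121300227 to 121337733 (plus strand) and Slc6a20a on chromosome 9 from 123634770 to 123678885 (minus strand). The deposited counts are per gene, so no exon or untranslated region can be set apart.

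Genes that the rule did not use carried the fibroblast label for most members. The 22 further fibroblast genes fixed as markers, among them Col1a1, Col3a1, Lama1, Bicc1, Foxc1 and Tbx18, summed to 14036 to 17141 CPM in the members of the CIH libraries and 10149 to 15939 in normoxia, against 780 to 1655 in the other kept nuclei. All 22 had UMIs in members. Markers of endothelial cells summed to 133 to 488 and those of microglia and macrophages to 85.7 to 230, against 93.6 to 466 and 174 to 265 in the other nuclei. Neuron markers summed to 1229 to 2055, against 11290 to 13386 in the other nuclei. Mural markers summed to 1259, 2274 and 3456 in the CIH members and 1580, 1929 and 904 in normoxia, with all 12 mural genes detected, against 40.3 to 116 in the other nuclei. Astrocyte markers summed to 1879, 2294 and 4081 in CIH and 2624, 9004 and 2109 in normoxia, with all 10 detected, against 967 to 1925 elsewhere. CIH 3 was therefore the highest in mural markers and normoxia 2 the highest in astrocyte markers. The arachnoid gene Krt18, the dural gene Thbs4 and the ependymal genes Ccdc153, Dnah12 and Rsph1 were at 0 UMIs in all members.

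**Figure D1:**
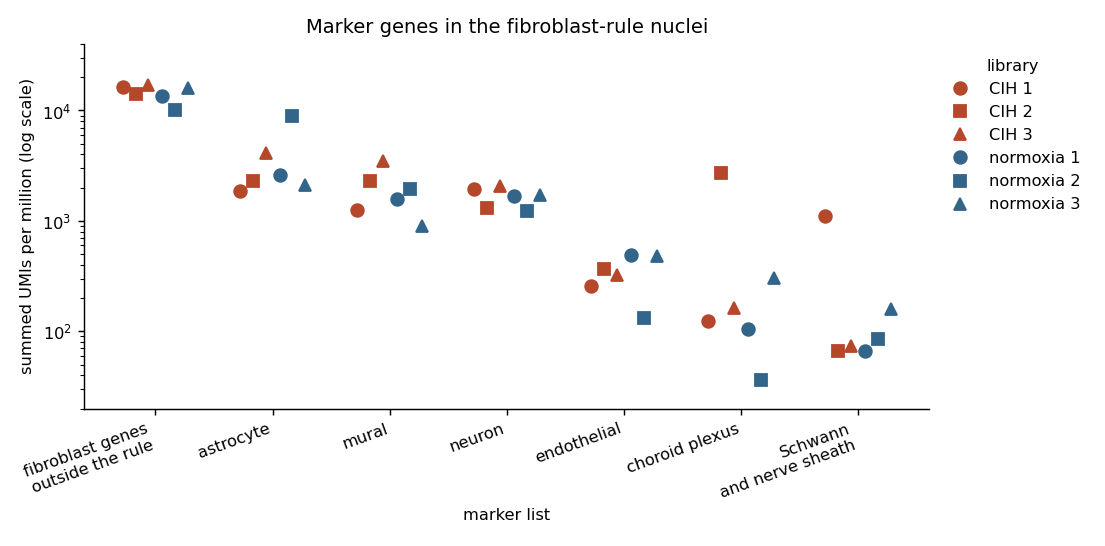
Summed CPM of 7 marker lists in the fibroblast-rule nuclei of each library, on a log axis, with 1 point per library (circle, square and triangle for replicates 1, 2 and 3). Fibroblast genes lie above 10149 in every library, the astrocyte list is highest in normoxia 2 at 9004, the mural list in CIH 3 at 3456, the choroid plexus list in CIH 2 at 2743 and the Schwann cell list in CIH 1 at 1098.

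The label held less well near the threshold of the rule. The 61 members with a marker sum of exactly 3 had 6775 CPM in fibroblast genes outside the rule and 10505 in astrocyte markers. The 68 nuclei just outside, with a sum of 2 from 2 genes, had 5374 and 12782, close to those just inside. The 96 nuclei kept out because 1 gene alone gave their 3 or more UMIs had 7718 and 7691. The 237 members with a sum of 10 or more had 21479 in fibroblast genes and 806 in astrocyte markers.

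The members fell into 6 subclusters when they were clustered without the rule genes, and the genes that lead a subcluster are named as its description, with no test. The largest, with 156 nuclei, was led by Lama1, which encodes a laminin chain of the pial basement membrane, and by Abca8a, Cemip (a hyaluronan-binding protein gene), Itih5 and Col15a1. Lama1 had 2868 CPM there and a UMI in 89.1% of nuclei, against 106 in the other members. Pdgfra, which the rule limits, was also among the 10 leading genes and had a UMI in 51.9% of nuclei. The subcluster is called pial and perivascular fibroblast-like because 4 of 14 pial and perivascular markers were among its 10 leading genes. Of the 14, 5 were seen in at least 20% of its nuclei. Next came a subcluster of 144 nuclei led by Nnat, Ptgds (prostaglandin D synthase), the carboxylate transporter gene Slc13a3 and Igf1. Ptgds had 16300 CPM there and 1683 in the other members, and Ranbp3l 2796. Of the fibroblast genes outside the rule 19 of 22 were seen in at least 20% of its nuclei, which was 14 in the pial and perivascular fibroblast-like group. It also showed 6 of 14 pial and perivascular markers at that cut, more than the group named for them. Only 1 of these, Nnat, was among its 10 leading genes, and Nnat had a UMI in 36.1% of its nuclei.

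Smaller subclusters carried transporter and barrier genes. The one of 59 nuclei was led by Slc47a1, an exporter of organic cations found in 98.3% of its nuclei, by the matrix gene Adamtsl3, the bicarbonate transporter gene Slc4a10 and Slc26a7. Its related exporter gene Slc47a2 had 441 CPM there and 1.01 in the other members. It held 5 of 13 arachnoid barrier and border markers (Abcg2, Cdh1, Cldn11, Slc47a1 and Tjp1) and 4 of 10 dural markers (Col8a1, Fxyd5, Mgp and Smoc2), so it is called by its leading gene Slc47a1. The smallest, of 19 nuclei, was led by Slc7a14, Cubn (a receptor for protein uptake), Prg4 (lubricin), Fn1 (fibronectin) and Dpp4. It also held 5 of 13 arachnoid barrier and border markers, with Cdh1, the epithelial cadherin, in 78.9% of nuclei and the tight-junction gene Cldn11 in 73.7%. These counts were not particular to the small groups. The Nnat-led group showed 4 of the 13 in at least 20% of its nuclei (Abcg2, Aldh1a2, Cldn11 and Tjp1). Tjp1 passed that cut in every subcluster, with 42.4% in the Slc47a1-led nuclei and 72.7% in a group with astrocyte markers described below. Rspo3, a Wnt-enhancing ligand gene, had 1058 CPM in the Slc47a1-led group and 41.5 in the other members.

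The other 2 subclusters went against the label. One of 117 nuclei was led by Slc38a11, Rgs5, Grm7, Notch3 and Abcc9, had 12913 CPM in mural markers, and showed 8 of 12 of them in at least 20% of its nuclei. It entered through Slc6a20a (a UMI in 90.6% of nuclei), Colec12 (86.3%) and Cped1 (63.2%), and its nuclei are called mural-like. The other, of 44 nuclei, was led by Gabrb1, Npas3, Gria1 and the astrocyte glutamate transporter gene Slc1a2. All 10 astrocyte markers were seen in at least 20% of its nuclei, with a sum of 16506 CPM, and its nuclei had a median marker sum of 4. It is called astrocyte-like. Together these 2 groups made up 161 of the 539 members (29.9%), and 378 nuclei lay in the other 4 subclusters.

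The makeup by subcluster was not the same in all libraries. The mural-like group took 10.9, 15.5 and 31.3% of the members of CIH 1, CIH 2 and CIH 3 and 6.98, 19.4 and 8.82% of those of normoxia 1, 2 and 3. The astrocyte-like group took 6.25, 5.17 and 8.36% in CIH and 6.98, 22.6 and 5.88% in normoxia. CIH 3 stood out for the first and normoxia 2 for the second. The pial and perivascular fibroblast-like group took 40.6, 39.7 and 18.9% in CIH and 41.9, 32.3 and 39.7% in normoxia, so that CIH 3 alone was under 32%. The Slc47a1-led group took 15.6, 15.5 and 8.0% in CIH and 14.0, 0 and 17.6% in normoxia. Normoxia 2 had 0 of 31 members there and in the group of Slc7a14 and Dpp4, which allows a share of up to 9.68% for each, from counting error alone. No test was made between the groups of mice, since subclusters are defined by the same genes.

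**Figure D2:**
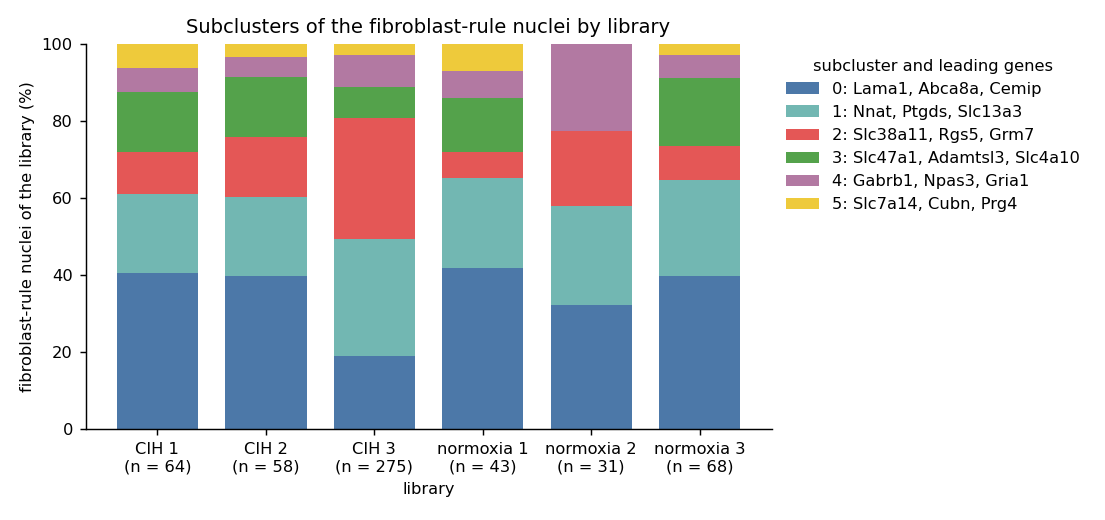
Share of the fibroblast-rule nuclei of each library (percent, bars summing to 100, with the number of nuclei under each) in the 6 subclusters, named by their leading genes. The mural-like group (Slc38a11, Rgs5, Grm7) is largest in CIH 3 at 31.3% and the astrocyte-like group (Gabrb1, Npas3, Gria1) in normoxia 2 at 22.6%.

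As a share of all kept nuclei, fibroblast-rule nuclei were more frequent in every CIH library than in any normoxia library. They made up 1.47% in CIH 1, 1.30% in CIH 2 and 2.58% in CIH 3, with 95% Wilson intervals of 1.15 to 1.87, 1.01 to 1.68 and 2.30 to 2.90%. In normoxia they made up 0.915% (0.680 to 1.23), 0.469% (0.330 to 0.664) and 0.724% (0.572 to 0.917). The means were 1.79 ± 0.696% and 0.703 ± 0.224% (SD, n = 3 libraries each), a difference of 1.08 percentage points. An exact two-sided permutation test over the 20 assignments of libraries gave p = 0.1, which is the smallest p that 3 against 3 allows. The difference was 0.685 points without CIH 3. It was 1.06 points with the shared barcodes left out of normoxia 2 and 1.20 with them left out of both libraries, and 0.712 points with the mural-like and astrocyte-like nuclei left out.

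The order of the groups depended on the nuclei the members were set against. Of the 22609 kept nuclei with fewer than 8 UMIs of Meg3, fibroblast-rule nuclei made up 2.45, 2.22 and 3.90% in CIH and 1.73, 0.942 and 1.49% in normoxia. These groups did not overlap, and the exact permutation p of the difference of 1.47 points was 0.1, again the smallest possible. Of the 11143 nuclei with fewer than 8 UMIs of Meg3 and at most 1 of Mog and Mag, a set with few neurons and oligodendrocytes, fibroblast-rule nuclei made up 4.37, 4.07 and 6.91% in CIH and 4.73, 2.19 and 3.49% in normoxia. These groups overlapped, and the exact permutation p of the difference of 1.65 points was 0.3. Endothelial nuclei (at least 3 UMIs of Flt1 and at most 1 of the 7 marker genes) made up 1.63, 1.33 and 3.54% of kept nuclei in CIH and 0.766, 0.438 and 0.916% in normoxia. There were 0.901, 0.983 and 0.729 fibroblast-rule nuclei per endothelial nucleus in CIH and 1.19, 1.07 and 0.791 in normoxia, which overlapped. The nuclei had passed a sort, which can set such shares, and its part was not tested. With every nucleus thinned to 1000 UMIs, the rule gave 1.07, 0.920 and 2.22% in CIH and 0.778, 0.320 and 0.542% in normoxia. Here 250, 209, 1192, 197, 674 and 530 shallower nuclei were left out in the order of the libraries. The excluding limits were applied to the thinned counts too, so a nucleus shut out at full depth could enter, and these are not the same members at equal depth.

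**Figure D3:**
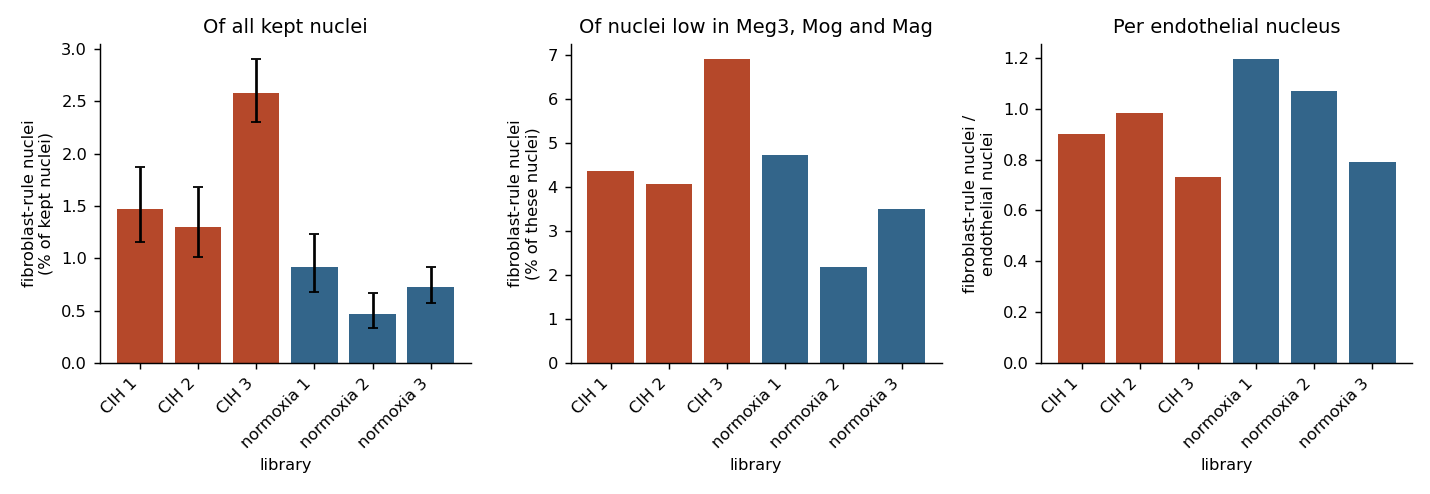
Fibroblast-rule nuclei in each library as a percentage of kept nuclei (left, bars with 95% Wilson intervals, counting error only), as a percentage of the nuclei low in Meg3, Mog and Mag (middle), and per endothelial nucleus (right). The 3 CIH libraries stand above the normoxia libraries on the left, at 1.30 to 2.58% against 0.469 to 0.915%, and the groups overlap in the middle and on the right.

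Many genes outside the rule set the members apart from the other nuclei of the same library. Among 475 genes with at least 20 UMIs in the members of every library, Slc7a11, the cystine transporter, had the highest ratio, with a mean log2 ratio of 6.91 over the 6 libraries. Its level in members varied from 483 CPM in CIH 3 to 1939 in CIH 1. Further genes of this kind were the metalloprotease gene Adamts12 (6.44), the matrix gene Itih5 (6.26), the receptor gene Pdgfrb (6.24) and Col4a5 (5.99), a basement membrane collagen. Bmp6, a bone morphogenetic protein gene, had 5.77, Eya1 5.64, the ceruloplasmin gene Cp 5.59, Lama1 5.41 and the cytokine gene Il34 5.16. These genes follow from the choice of nuclei and are given without a test. The cation pump gene Atp13a5, which is also a mural marker and was among them, had 364, 705 and 1294 CPM in CIH and 527, 844 and 239 in normoxia. Bnc2, a zinc-finger transcription factor gene of the Slc47a1-led and Slc7a14-led nuclei, had 241 in normoxia 2 and 728 to 1372 in the other libraries.

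The comparison of CIH with normoxia within the members asked which genes of these cells differ after the exposure. No gene passed. edgeR's quasi-likelihood test on the UMIs summed per library found 0 of 2996 genes (0%) with an adjusted p under 0.05. The smallest adjusted p was 0.999, and 91 genes had an unadjusted p under 0.05. DESeq2 called 0 on the same sums, with 81 genes at an unadjusted p under 0.05 and a smallest adjusted p of 0.332. In sums simulated from these libraries' means and depths the edgeR procedure recovered 91% of 4-fold and 14% of 2-fold changes, so most changes near 2-fold would not have been detected with these libraries. In 253 of the 2996 genes (8.44%) the libraries of the groups did not overlap, with every CIH library above every normoxia library in 129 (4.31%) and below in 124 (4.14%). All genes tested had a median log2 fold change of -0.01. CPM below are scaled by the size factor of the fit as well, and the genes named are those of smallest p without overlap between the groups and fixed members of gene lists. They are values, not calls, and each has an edgeR adjusted p of 0.999.

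Cacna2d3, Cbfa2t2 and Zcchc24 had UMIs in all 6 subclusters. That their groups lay apart follows from how genes were chosen for naming and is no support for a difference. Cacna2d3, an auxiliary subunit gene of voltage-gated calcium channels, had 207, 254 and 235 CPM in CIH 1, 2 and 3 and 455, 483 and 442 in normoxia. The CIH libraries lay close together and all under the normoxia libraries, with a log2 fold change of -0.98 (SE 0.23) that was -0.98 without CIH 3 and -1.01 without the mural-like and astrocyte-like nuclei. Of its 338 UMIs, 62 lay in the 19 nuclei led by Slc7a14, a group with 0 nuclei in normoxia 2. Cbfa2t2, a transcriptional corepressor gene, had 103, 130 and 125 CPM in CIH and 242, 254 and 248 in normoxia. Its log2 fold change was -1.04 (SE 0.25), and -1.06 without those nuclei. Zcchc24 had 161, 150 and 169 CPM in CIH and 77.4, 88.9 and 70.8 in normoxia, a log2 fold change of 1.03 (SE 0.29). It was 1.10 without the mural-like and astrocyte-like nuclei. Cacna2d3 is on chromosome 14 from 28904943 to 29721864 (minus strand), Cbfa2t2 on chromosome 2 from 154436481 to 154539356 (plus strand) and Zcchc24 on chromosome 14 from 25711642 to 25769039 (minus strand).

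Further genes had groups that did not overlap. Among the higher ones, Bicra, a subunit gene of a chromatin remodelling complex, had a log2 fold change of 1.21, Kirrel, a cell adhesion gene, 1.01, Usp54 0.99 and Epc2, a gene of a histone acetyltransferase complex, 0.90. Without the mural-like and astrocyte-like nuclei Bicra read 1.57, Epc2 1.07 and Usp54 1.04, while Kirrel fell to 0.79. The ribosomal protein gene Rpl37 (1.27, and 2.04 without normoxia 3) had only 2 UMIs in normoxia 2, and such genes share reads with near-identical pseudogenes. Galnt17 had 155, 202 and 162 CPM in CIH and 77.4, 63.5 and 106 in normoxia, a log2 fold change of 1.02. It was 0.99 without the mural-like and astrocyte-like nuclei, and 59 of its 171 UMIs were in the mural-like group. Among the lower ones, Tm9sf3 had -1.24, Zfand5 -1.42, the testican gene Spock3 -1.52 and the zinc-finger genes Zkscan1 and Hivep1 -1.65 and -1.13. Zkscan1 rested on 5, 6 and 12 UMIs in the CIH libraries and 10, 7 and 9 in normoxia.

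Several of the separated genes sat in the subclusters that went against the label. Gabra2, a subunit gene of the GABA-A receptor, had 40.2, 45.6 and 73.5 CPM in CIH and 252, 216 and 115 in normoxia, with a log2 fold change of -1.73 (SE 0.38). Of its 110 UMIs in members, 99 (90%) lay in the 44 astrocyte-like nuclei, and it did not pass the filter on low counts without them and the mural-like ones. Wdr17 had 212, 189 and 180 CPM in CIH and 426, 610 and 221 in normoxia, a log2 fold change of -1.10 that became 0.26 without those nuclei. Of its 281 UMIs 179 were in the astrocyte-like group. Ctnna3, the gene of alpha-T-catenin, had 126, 143 and 270 CPM in CIH and 339, 1105 and 283 in normoxia, with 251 of its 345 UMIs in that group. In all 3 genes most UMIs lay in nuclei that took their largest share of members in normoxia 2. Leaving out normoxia 2 took the log2 fold change of Wdr17 to -0.75 and that of Ctnna3 from -1.59 to -0.72. Gabra2, highest in normoxia 1, read -1.66 without normoxia 2.

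Most UMIs of Pdzd2 and Lin7a lay in the mural-like nuclei. Pdzd2, a PDZ-domain gene, had 207, 410 and 358 CPM in CIH and 165, 25.4 and 106 in normoxia, with a log2 fold change of 1.66 (SE 0.46). Of its 325 UMIs 196 (60.3%) were in the mural-like nuclei, and the log2 fold change was 1.23 without them and the astrocyte-like ones. Lin7a, a scaffold protein gene, had 109, 91.1 and 338 CPM in CIH and 48.4, 38.1 and 79.6 in normoxia. Its log2 fold change was 1.75 (SE 0.59), it was 0.82 without CIH 3, and 185 of its 234 UMIs were in the mural-like group. All 6 mural markers that passed the filter had higher values in CIH, with a median log2 fold change of 0.74 that was 0.34 without CIH 3, 0.47 without normoxia 3 and 1.11 without normoxia 2. Without the mural-like and astrocyte-like nuclei 3 of them passed the filter, with a median of -0.76. All 5 astrocyte markers had lower values, with a median of -0.60 that was 0.15 without normoxia 2 and -1.19 to -1.04 without CIH 3, normoxia 1 or normoxia 3. The part of these nuclei in other differences was not tested.

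**Figure D4:**
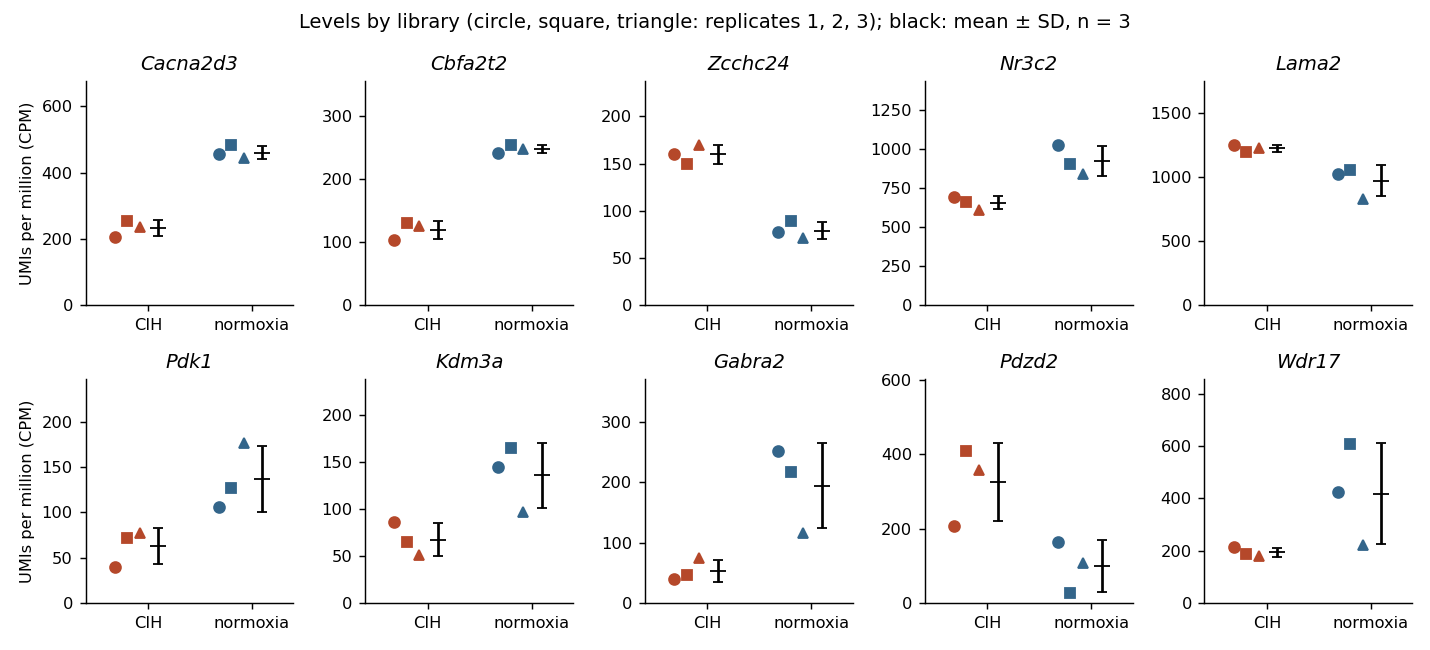
Levels in CPM of 10 genes in the fibroblast-rule nuclei, 1 point per library, with the mean ± SD of each group (n = 3) in black and each axis starting at 0. Cacna2d3, Cbfa2t2 and Zcchc24 have tight groups that do not meet, Gabra2 and Wdr17 spread widely in normoxia (115 to 252 and 221 to 610 CPM), and none of the 10 passed the test.

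Matrix genes, the main products of fibroblasts, did not lean one way as a whole. Of 26 collagen genes 16 passed the filter on low counts, 5 with higher and 11 with lower values in CIH and a median log2 fold change of -0.23. The filter keeps genes by their level, so these 16 do not stand for all collagens. Col27a1, a fibrillar collagen, had 22.9, 52.1 and 60.7 CPM in CIH and 77.4, 88.9 and 115 in normoxia (log2 fold change -0.95, SE 0.44). Its groups did not overlap, which held for 1 of the 16 collagens and for 8.44% of all genes. Col26a1 had 0.79, which was 0.45 without CIH 1 and 0.49 without normoxia 3. Col15a1, which lies in the pial and perivascular fibroblast-like nuclei, had -0.58, which was -1.02 without CIH 1 and -0.25 without CIH 3. The median of the collagens lay between -0.22 and 0.003 with 1 library left out, the highest without normoxia 3. Of 54 matrix glycoprotein and proteoglycan genes 20 passed the filter, 10 in each direction, with a median of 0.07. They included the glypican gene Gpc6, which had 1646 to 1962 CPM in CIH and 1753 to 2381 in normoxia (-0.17), Ltbp1, which binds latent TGF-beta (-0.95), and the glypican gene Gpc3 (0.66). Gpc6 read -0.04 without normoxia 1, -0.26 without CIH 1 and -0.27 without normoxia 2, and Ltbp1 read -0.36 without normoxia 2. Gpc3 read 0.36 without CIH 3, 0.42 without normoxia 2 and 1.06 without normoxia 3. Mgp, the matrix Gla protein gene, had 258, 501 and 482 CPM in CIH and 242, 88.9 and 1185 in normoxia. Fn1 had 838, 280 and 206 in CIH and 1065, 127 and 257 in normoxia. Both are genes of the small Slc47a1-led and Slc7a14-led groups, and their spread within a group of mice exceeded the difference between the groups.

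Laminin and integrin genes were measured in 11 of 28 cases, with 6 higher, 5 lower and a median of 0.20. Lama2, the laminin alpha chain of many basement membranes, had 1251, 1197 and 1224 CPM in CIH and 1026, 1054 and 831 in normoxia. The groups did not overlap, the log2 fold change was 0.34 (SE 0.24), and it was 0.38 without the mural-like and astrocyte-like nuclei. Lama2 lies on chromosome 10 from 26980036 to 27619758 (minus strand). Lama1 (chromosome 17 from 67697259 to 67822647, plus strand) had 1033, 683 and 695 CPM in CIH and 532, 457 and 1008 in normoxia, which overlapped. Itgb8, an integrin subunit that activates latent TGF-beta, had a log2 fold change of -0.79, which was -1.38 without CIH 3, and 61 of its UMIs were in the astrocyte-like group. The median of the list was -0.12 without normoxia 2, 0.01 to 0.02 without CIH 1 or normoxia 3, and -0.02 without CIH 3, as it was without the mural-like and astrocyte-like nuclei. Of 37 matrix processing enzymes 9 were measured, 4 higher and 5 lower with a median of -0.02. Adamts12 had 660, 560 and 232 CPM in CIH and 232, 368 and 265 in normoxia (0.73, SE 0.40), which overlapped. It read 0.42 without CIH 1 and 1.10 without CIH 3. P4ha1, a prolyl hydroxylase gene that is also a hypoxia target, had 120, 124 and 147 CPM in CIH against 106, 102 and 79.6 (0.47, SE 0.30).

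Transporters were the list with the most measured members, 31 of 48, of which 16 were higher and 15 lower with a median of 0.03. The split was 9 higher and 21 lower without CIH 1 (median -0.12), 19 and 11 without CIH 3 (0.22) and 11 and 21 without normoxia 2 (-0.31). Slc23a2, a vitamin C transporter, had 333, 547 and 290 CPM in CIH and 252, 152 and 265 in normoxia. Its log2 fold change was 0.76 (SE 0.33), it was 0.44 without CIH 2 and 0.18 under a stricter rule (a marker sum of at least 5 from at least 3 genes), and 238 of its 368 UMIs were in the Slc47a1-led nuclei, of which normoxia 2 had 0. Slc8a1, the sodium-calcium exchanger, had 149, 65.1 and 132 CPM in CIH and 145, 254 and 310 in normoxia (-0.99, SE 0.37), and the groups overlapped. Slc38a11, an amino acid transporter gene that led the mural-like nuclei, had 45.9, 150 and 287 CPM in CIH and 58.1, 127 and 17.7 in normoxia, with 201 of its UMIs in those nuclei. These groups overlapped. Its log2 fold change of 1.45 was 0.62 without CIH 3, 0.94 without normoxia 3 and 2.21 without normoxia 2.

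Signalling genes were also divided. Of the retinoic acid pathway 4 of 20 genes were measured. The synthesis enzyme Aldh1a2 had 115, 124 and 107 CPM in CIH and 136, 127 and 168 in normoxia (-0.35, SE 0.28), without overlap, while Aldh1a1 had -0.34 and the receptor gene Rarb 0.30, both with overlap. Aldh1a2 read -0.21 without normoxia 3. Rarb read 0.17 without CIH 1, 0.18 without normoxia 3 and 0.48 without normoxia 2. Of the TGF-beta and BMP pathway 15 of 38 were measured, 5 higher and 10 lower with a median of -0.24, which was 0.04 without CIH 3 or without normoxia 3 and -0.15 without normoxia 2. The ligand gene Bmp5 had 166, 293 and 219 CPM in CIH and 116, 76.2 and 177 in normoxia (0.83, SE 0.35), where CIH 1 lay below normoxia 3. Of the Wnt pathway 14 of 42 were measured, 8 higher and 6 lower with a median of 0.06, which lay between -0.09 (without normoxia 2) and 0.21 (without CIH 3) with 1 library left out. The receptor gene Fzd6 had 91.8, 97.6 and 134 CPM in CIH and 67.8, 38.1 and 44.2 in normoxia (1.13, SE 0.39), with 57 of its UMIs in the mural-like nuclei. The ligand gene Wnt4 had 57.4, 39.0 and 68.0 CPM in CIH and 87.1, 102 and 97.3 in normoxia (-0.71, SE 0.37), and 28 and 50 of its 81 UMIs were in the pial and perivascular fibroblast-like and the Nnat-led nuclei. Ror1, a receptor of Wnt5a, had 0.40, and 0.60 without normoxia 3. Of growth factors and receptors 21 of 46 were measured, 9 higher and 12 lower with a median of -0.05, among them Angpt1, a ligand of the endothelial receptor Tie2 (-0.62), Igf1 (-0.84) and the receptor gene Igf2r (0.60). Igf1 read -1.44 without CIH 3 and -0.49 without normoxia 1, and Igf2r 0.32 without normoxia 2.

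Genes of the responses to low oxygen and to glucocorticoids, which the exposure could bear on, went both ways in these sums. Of 45 hypoxia-response genes in the matrix 11 were measured, 6 higher and 5 lower with a median of 0.04, against -0.01 over all genes. Pdk1, a kinase that restrains pyruvate dehydrogenase and a textbook target of hypoxia-inducible factors, had 40.2, 71.6 and 77.2 CPM in CIH and 106, 127 and 177 in normoxia. Its log2 fold change was -1.07 (SE 0.36) and the groups did not overlap. Kdm3a, a histone demethylase gene induced by low oxygen, had 86.0, 65.1 and 51.5 CPM in CIH and 145, 165 and 97.3 in normoxia (-1.04, SE 0.36). The glycolytic enzyme gene Aldoa had 74.6, 91.1 and 143 CPM in CIH and 19.4, 38.1 and 79.6 in normoxia (1.20, SE 0.50), from 2 and 3 UMIs in normoxia 1 and 2. It read 0.79 without normoxia 1 and 1.95 without normoxia 3. Epas1, which encodes HIF-2 alpha, had 0.60, with overlap, and 0.30 without CIH 3 and 0.33 without normoxia 3. Of the 101 Pdk1 UMIs, 54 were in the pial and perivascular fibroblast-like and 36 in the Nnat-led nuclei. The list's median was -0.37 under the stricter rule and 0.35 without normoxia 2.

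Glucocorticoid-response genes were measured in 9 of 29 cases, 6 higher and 3 lower with a median of 0.22. Nr3c2, the mineralocorticoid receptor gene, had 694, 664 and 612 CPM in CIH and 1026, 902 and 840 in normoxia (-0.49, SE 0.24), and the groups did not overlap. Fkbp5, which encodes a co-chaperone of steroid receptors, had 528, 351 and 724 CPM in CIH and 329, 127 and 681 in normoxia (0.48, SE 0.48), where normoxia 3 lay within the CIH range. It read 0.09 without normoxia 2, 0.20 without CIH 3 and 1.21 without normoxia 3. Tsc22d3 (0.74), Zbtb16 (0.74) and Klf9 (0.22), which also respond to glucocorticoids, had higher mean values in CIH. Tsc22d3 had 109, 97.6 and 178 CPM against 87.1, 50.8 and 97.3, and Zbtb16 361, 182 and 546 against 184, 178 and 301. Tsc22d3 read 0.38 and Zbtb16 0.30 without CIH 3, and Klf9 0.11 without CIH 1 or without normoxia 3.

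Of 45 genes of inflammation and fibroblast activation 9 were measured, 5 higher and 4 lower with a median of 0.01, and the transcription factor gene Stat3 had 0.62 with overlap. Of 51 mesenchymal transcription factor genes 29 were measured, 12 higher and 17 lower with a median of -0.05. Foxp1 had 1756 to 2237 CPM in CIH and 991 to 2149 in normoxia (0.36) and was highest in the Slc47a1-led nuclei, at 5759 CPM. It read 0.11 without normoxia 2 and 0.65 without normoxia 3. Meis2 had 51.6, 84.6 and 123 CPM in CIH and 165, 229 and 133 in normoxia (-0.90, SE 0.37), with 80 of its 139 UMIs in the astrocyte-like group. It read -2.12 without that group and the mural-like one. Meis1 had -0.49 and Foxo1 0.71, both with overlap, and Meis1 read -0.31 without normoxia 2. With 1 library left out in turn, the median changed sign for 11 of the 13 functional lists, the exceptions being the retinoic acid pathway (-0.37 to -0.15) and the glucocorticoid response (0.11 to 0.25). None of 26 immediate early genes, whose transcripts rise within minutes of a stimulus, passed the filter.

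**Figure D5:**
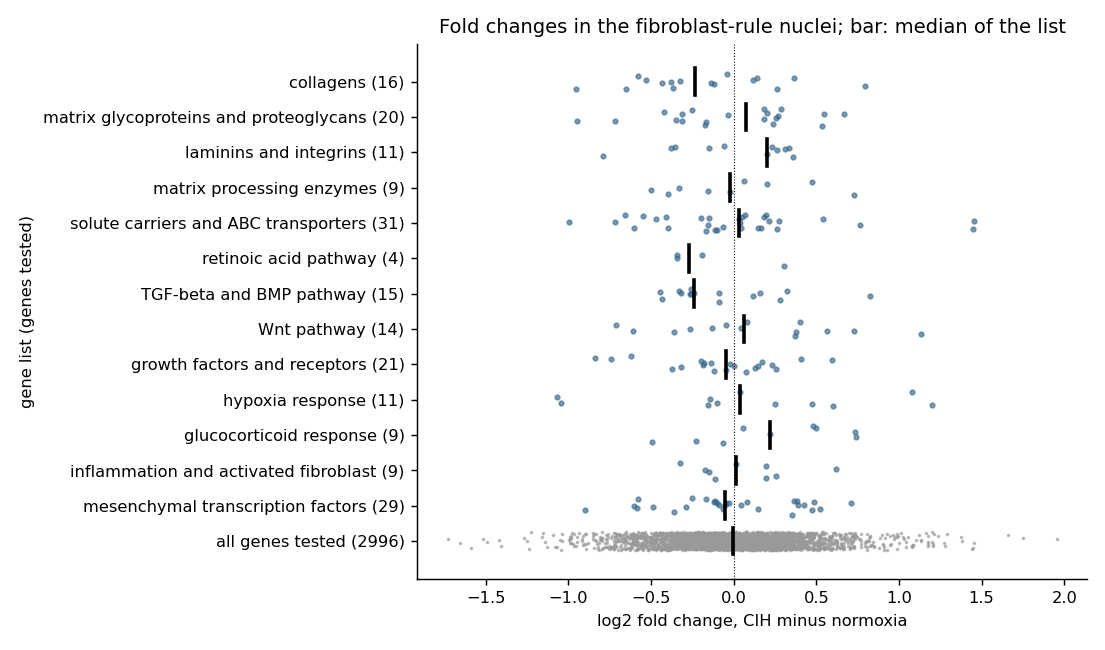
Log2 fold change (CIH minus normoxia) of each gene that passed the filter, by gene list, with the number of genes in brackets and a bar at the list's median. List medians lie between -0.27 (retinoic acid pathway) and 0.22 (glucocorticoid response), beside -0.01 for the 2996 genes tested.

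Whether fibroblast-rule nuclei responded differently from endothelial nuclei was tested on the difference in log2 CPM between the 2 classes of a library. limma found 0 of 1952 genes (0%) past the threshold. The smallest adjusted p was 0.887, and 100 genes had an unadjusted p under 0.05. The test recovered 67% of 4-fold differences in simulated sums. Among genes of smallest p, Cbfa2t2 had a log2 difference between CIH and normoxia of -1.05 in fibroblast-rule nuclei and 0.58 in endothelial nuclei (difference -1.62, SE 0.43, adjusted p = 0.887 in limma). Pdzd2 had 1.91 and 0.35, Tm9sf3 -1.19 and 0.36, and Gpd2, a mitochondrial glycerol phosphate dehydrogenase gene, -1.02 and 0.38. Dag1, the dystroglycan gene, had 0.20 and -1.39 and the astrocyte marker Gpc5 -0.60 and -2.99. None passed, so a difference between the 2 classes of cells was not shown for any gene.

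In a few genes 1 nucleus carried most of a library's UMIs. Without the filter on low counts, edgeR called 9 of 18231 genes, 7 higher and 2 lower in CIH, of which 8 are named here after their values were seen. Htr2c, a serotonin receptor of the choroid plexus, had 234 UMIs in CIH 2, of which 226 came from 1 nucleus, and 1 to 16 in the other libraries. Ttr, the transthyretin gene of the choroid plexus, had 148 in CIH 2, with 144 in 1 nucleus. Enpp2 had 151 UMIs in CIH 2, with 128 in 1 nucleus, and 6330411D24Rik, lower in CIH, had 26 in normoxia 2, with 24 in 1 nucleus. Pdzd2, Lin7a, Crispld1 and Ctnna3 were less concentrated in 1 nucleus. For Ctnna3, 3 nuclei still held 64 of 87 UMIs in normoxia 2, 31 of 35 in normoxia 1 and 20 of 22 in CIH 1. For Crispld1, 3 nuclei held 30 of 45 UMIs in CIH 2. Crispld1, a gene of the Slc47a1-led group, had 28, 45 and 11 UMIs in CIH and 1, 0 and 8 in normoxia, in 8, 12 and 8 nuclei and 1, 0 and 4 nuclei.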

How the data were processed

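Nuclei of mouse pons and medulla were profiled in 3 CIH and 3 normoxia libraries with 10x Genomics 3′ chemistry. The authors deposited filtered matrices of raw UMI counts per gene and barcode. They were made with Cell Ranger 6.1.2 per the file headers, while the submitters' processing notes name Cell Ranger 3.1.0, Seurat 4.0 and mm10. Whether intronic reads were counted is not given in the sources used here. The matrices held 43836 barcodes and 32285 genes.

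The members and gene lists were chosen with earlier results of these data known. Counts of members were summed per library (82963 to 538816 UMIs) and tested with edgeR 4.0.16 (quasi-likelihood, TMM, filterByExpr, Benjamini-Hochberg over 2996 genes). Library sizes were the sums of all member UMIs, a choice made after a first fit had been seen. DESeq2 1.42.0 was an alternative. limma 3.58.1 tested fibroblast minus endothelial log2 CPM (prior count of 1). R was 4.3.3, Python 3.11.15, scanpy 1.11.5, leidenalg 0.10.2 and scipy 1.17.1. Members were clustered on 2000 variable genes without the rule genes (20 principal components, 15 neighbours, Leiden resolution 0.5). Scrublet marked 14 members, which were kept in the main values. Wilson intervals and limits for a count of 0 cover counting error only. Named genes were the 10 of smallest unadjusted p in each direction without overlap between groups, and in each list the 3 of highest level and the 3 of smallest p. Predicted genes were counted, not named, and some genes the rule would name are not reported here. Genes that lead subclusters are a description. Both procedures were tested on simulated sums. Alternatives changed the size factors, filter, rule, nucleus filter, depth and single libraries.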

Additional observations from a re-analysis of the deposited data

How the results depend on the processing

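The count of genes called in fibroblast-rule nuclei was 0 in 17 of 18 other settings and 9 without the filter on low counts. The interaction count was 0 in all 9 settings tried. The difference in share kept its direction in 16 settings, from 0.685 to 1.32 percentage points when single libraries were left out. Among nuclei low in Meg3, Mog and Mag the groups overlapped (exact permutation p = 0.3). Members per endothelial nucleus, which is not among these settings, went the other way. Its mean was 0.871 in CIH and 1.02 in normoxia, with overlap. Of 58 genes with printed fold changes, 4 changed sign in some setting. Without the mural-like and astrocyte-like nuclei, an alternative chosen after seeing the data, Wdr17 had 0.26, Egflam -0.0048 and Igf2r -0.14. The count covers only settings in which a gene passed the filter on low counts. Several genes, among them Gabra2, Lin7a, Ctnna3, Rpl37 and Slc38a11, did not pass it without those nuclei. Under the stricter rule Meis1 had 0.065. Deviations from the group means had correlations of 0.197, -0.023 and -0.144 in same-numbered libraries. Those of unlike-numbered libraries ran from -0.251 to 0.283. With 3 libraries a group these values cannot decide whether replicate numbers pair the libraries. The fit with the replicate block called 0 genes. With 3 libraries a group at these depths, simulated 2-fold changes were recovered in 14% of cases.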
